A study of Homo sapiens with 6 samples.

Results

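The genes described here are 44 genes of NRF2 and oxidative stress defence, chosen by symbol: the NRF2 regulators and genes of quinone and heme metabolism, glutathione, thioredoxin, peroxide removal, iron handling and NADPH supply. Of the 30735 genes listed in the files, 43 were members, and AKR1B10 was not analysed here. At least 1 RPKM (reads divided by gene length and by the library's read total) in at least 3 samples was reached by 12527 genes, 40 of them members. SRXN1, MGST1 and AKR1C1 stayed below that limit and were not tested.

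RNA sequencing was done on PANC-1, a long-established line of human pancreatic ductal adenocarcinoma cells. The cells received either CD73 siRNA (3 samples) or a negative control (3 samples) with Lipofectamine 3000 in medium without serum, and all had been grown in DMEM with fetal bovine serum. CD73 is the ectoenzyme, encoded by NT5E, that turns extracellular AMP into adenosine, and the comparison asks how transcript levels change when it is knocked down. The siRNA sequence and the time from transfection to harvest are not given in the sources used here. The study describes the 3 samples of a group as separate knockdowns, the labels do not say how far they were separate cultures, and p-values measure only the spread between these 6 samples.

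The library totals implied by the values were between 15009263 and 16836039 reads. NT5E stood at 3.36, 6.85 and 8.22 RPKM in CD73 siRNA replicates 1, 2 and 3 and at 14.0, 13.9 and 17.1 RPKM in the negative control replicates, so the groups did not overlap and the knockdown left 41.0% of the control mean (log2 fold change -1.23, SE 0.26, limma adjusted p = 0.303). GAPDH had a log2 fold change of -0.01. Of the ductal epithelial markers KRT8, KRT18 and SOX9 were well above 1 RPKM in every sample, whereas KRT7, a defining duct keratin, was between 0.01 and 0.11 RPKM. KRT19 was at 3.59 to 5.39 RPKM, EPCAM at 0.58 to 1.71 RPKM and CDH1 at 0.42 to 1.69 RPKM. All leukocyte, endothelial, acinar and islet markers with values were below 1 RPKM, and of the fibroblast markers COL1A1 alone was above it, at 8.97 to 19.1 RPKM. The summed level of the 7 ductal markers was 125 to 157 RPKM with CD73 siRNA and 188 to 299 RPKM in the controls, and its part in the results was not tested. KRT8 (log2 fold change -1.27) and KRT18 (-0.68) were lower with CD73 siRNA, while SOX9 (0.20) was higher, each with non-overlapping groups. KRT19 (-0.26) and CDH1 (-0.12) had lower means with overlapping groups, and EPCAM had a log2 fold change of 0.03. In bulk RNA, fewer cells with a transcript and less of it per cell cannot be told apart.

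NRF2, encoded by NFE2L2, is a transcription factor that KEAP1 holds in the cytoplasm and passes to the proteasome. When electrophiles or oxidants modify KEAP1, NRF2 accumulates, pairs with a small MAF protein such as MAFG and binds antioxidant response elements near genes of glutathione synthesis, thioredoxin recycling, quinone reduction, iron storage and NADPH production. Because NRF2 itself is controlled mainly through protein stability, the transcripts of its targets are the usual reading of its activity.

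To show where such an element could lie, RefSeq promoter windows (GRCh38.p14, 250 bases before to 50 after each transcription start) were searched on both strands for the core TGACNNNGC. Windows were found for 34 members. No window was available for GSR, HMOX1, SLC7A11, FTH1, PRDX1, PRDX6, SOD1, TXN2, GSS and AKR1B10, so these were not searched. Sequence outside the windows was not searched either. The core was in 10 of their 47 windows (21.3%) and in 13.3% of all 35116 promoter windows. Members with a match were ME1, TXNRD1, GCLM, GSTP1, GSTO1, KEAP1, PGD, AIFM2 and MGST1. A match each of ME1, TXNRD1 and GCLM is printed because these genes recur in the results. The windows of ME1 held 2 matches, those of TXNRD1 held 3 and that of GCLM held 1. The core is in capitals, and each sequence reads 5′ to 3′ along the strand of its gene.
ME1, chr6:83431170-83431198, minus strand, bases -137 to -129 from the start: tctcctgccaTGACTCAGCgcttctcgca
TXNRD1, chr12:104215670-104215698, plus strand, bases -99 to -91 from the start: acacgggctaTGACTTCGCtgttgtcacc
GCLM, chr1:93909446-93909474, minus strand, bases -34 to -26 from the start: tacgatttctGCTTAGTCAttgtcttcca
In the printed ME1 match the core overlaps the AP-1 core TGACTCA, and in GCLM it lies on the opposite strand. A match describes these letters only and is not a measured binding site.

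Across the pathway, 3 of the 40 tested members had an unadjusted p below 0.01. The study also used 0.01 as its limit, without saying whether its p was adjusted. PRDX4 and ME1 were higher with CD73 siRNA and GSR was lower, each with non-overlapping groups. This is 7.5% of the members, beside 3.13% of all tested genes (higher in 1.82%, lower in 1.31%). With an adjusted p below 0.05 limma called 0 members and 1 of the 12527 genes, and 6 members (15%) had an unadjusted p below 0.05, beside 12.1% of all genes. Samples that carried the same replicate number deviated together, so a second fit took the replicate number as a block. In that fit 7 members (17.5%) passed 0.01, beside 7.57% of all tested genes. NFE2L1 and CAT joined the higher members (higher in 4.27% of all genes), and TXNRD1 and FTH1 joined GSR among the lower ones (3.3%). The smallest adjusted p of a member was 0.303 without the block and 0.113 with it. The 3 calls made without the block were lost when all genes above 0 were fitted and in the fit without CD73 siRNA replicate 1 (0 members called in each).

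**Figure D1:**
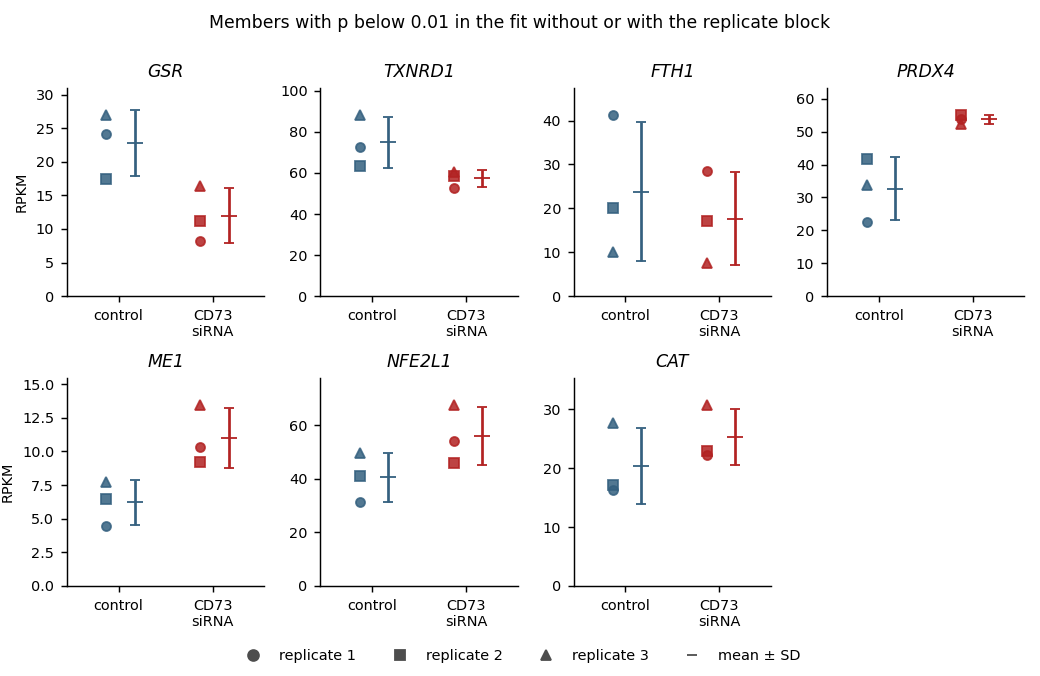
RPKM (vertical axes, linear and starting at 0) of the 7 members with an unadjusted p below 0.01 in the fit without or with the replicate block, in negative control (blue) and CD73 siRNA (red) samples. Point shapes give the replicate number and bars the mean ± SD (n = 3). GSR, TXNRD1, PRDX4 and ME1 separate the groups, whereas FTH1, NFE2L1 and CAT overlap between groups and differ in the same direction within every number.

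More members had a lower than a higher mean. On the log2(RPKM + 1) scale 29 of 40 (72.5%) were lower with CD73 siRNA, beside 48% of all tested genes, and the median log2 fold change was -0.10 beside 0.01 for all genes. Within replicate numbers, 18 members (45%) were lower in all 3 comparisons, beside 24.5% of all genes, and 6 (15%) were higher in all 3, beside 27%. The groups did not overlap for 5 members that were lower (12.5%, beside 8.07% of all genes) and for 3 that were higher (7.5%, beside 10.3%). These shifts were small for most members. The replicate numbers were unequal in it: the median difference of the members was -0.17 in number 1, -0.01 in number 2 and -0.09 in number 3, with 30, 22 and 27 of the 40 members lower.

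**Figure D2:**
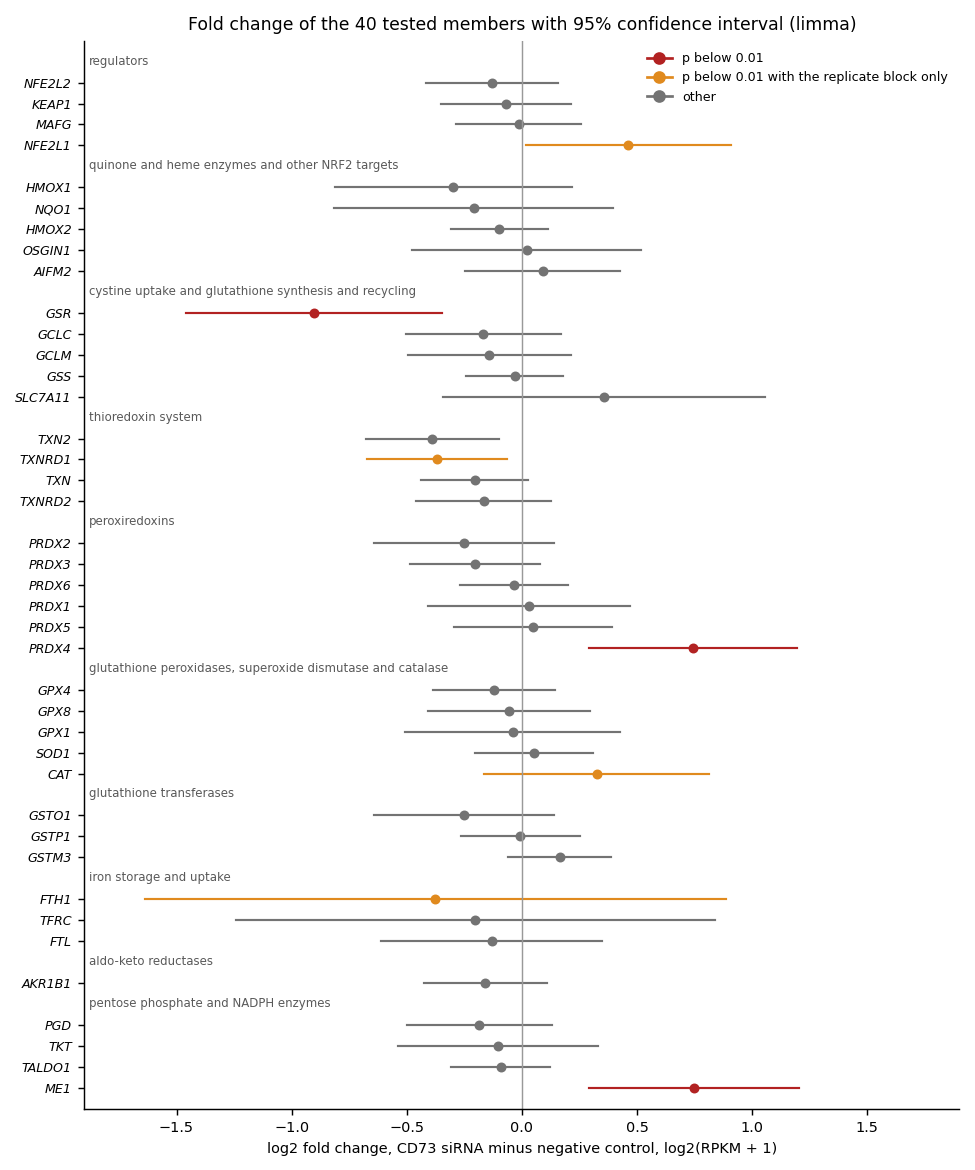
Log2 fold change (CD73 siRNA minus negative control, log2(RPKM + 1), horizontal axis) of the 40 tested members grouped by role, with 95% confidence intervals from limma. Red marks an unadjusted p below 0.01, orange one below 0.01 only with the replicate block. GSR at -0.90, PRDX4 at 0.74 and ME1 at 0.75 lie apart from the other members, and the intervals of FTH1 and TFRC are the widest.

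Among the regulators, NFE2L1 had the largest difference and the NRF2 axis itself differed little. NFE2L2 was at 25.7, 23.3 and 20.1 RPKM in the CD73 siRNA replicates and at 28.3, 23.7 and 23.9 RPKM in the controls (log2 fold change -0.13, 95% confidence interval -0.42 to 0.16). It was lower within every number, but the groups overlapped. KEAP1, the adaptor that presents NRF2 to its ubiquitin ligase, was at 27.6, 29.8 and 36.2 RPKM against 31.5, 31.2 and 35.1 RPKM (-0.07, interval -0.35 to 0.21). MAFG, the small MAF partner, averaged 24.3 ± 2.8 and 24.5 ± 2.2 RPKM (SD, n = 3). NFE2L1, a relative of NRF2 that is anchored in the endoplasmic reticulum and drives proteasome genes, was at 54.3, 46.1 and 67.7 RPKM with CD73 siRNA and at 31.2, 41.0 and 49.6 RPKM in the controls. The groups overlapped, yet each CD73 siRNA sample was above the control of its number, by 1.74, 1.12 and 1.36 times. Its log2 fold change was 0.46 (SE 0.19, limma unadjusted p = 0.0437). With the block it had an SE of 0.12 (limma unadjusted p = 0.00739, adjusted p = 0.12).

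The enzymes most often read as NRF2 output did not pass the test. NQO1, which reduces quinones without releasing radicals, was at 38.1, 29.4 and 44.5 RPKM with CD73 siRNA and at 50.7, 27.6 and 55.6 RPKM in the controls (log2 fold change -0.21, interval -0.82 to 0.40). It was lower in numbers 1 and 3 and slightly higher in number 2. HMOX1, the inducible heme oxygenase, went the same way, with 26.2, 41.2 and 37.0 RPKM against 41.3, 32.6 and 56.0 RPKM (-0.30, interval -0.81 to 0.22). In both genes number 2 had the lowest control value. HMOX2, the constitutive heme oxygenase, was at 14.9, 15.1 and 15.8 RPKM against 16.7, 16.7 and 15.9 RPKM, so the groups did not overlap, although the ratio in number 3 was 0.994 (-0.10, limma unadjusted p = 0.312). OSGIN1 and AIFM2 were near the limit of 1 RPKM. OSGIN1 ranged from 0.86 to 2.06 RPKM and AIFM2, which protects lipids from peroxidation as FSP1, from 0.74 to 1.22 RPKM, on 48 to 120 and 61 to 94 reads.

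In glutathione metabolism the recycling enzyme was lower with CD73 siRNA, while the synthesis enzymes did not pass the test. GSR (ENSG00000104687), glutathione reductase, lies on chromosome 8 from 30678061 to 30727999 on the minus strand (GENCODE 29, GRCh38). It was at 8.26, 11.2 and 16.4 RPKM in the CD73 siRNA replicates and at 24.1, 17.4 and 26.9 RPKM in the controls. Every CD73 siRNA sample was below every control, and CD73 siRNA replicate 3 came close to control replicate 2. The mean was 12.0 ± 4.1 against 22.8 ± 4.9 RPKM (SD, n = 3), or 52.4% of the control, with a log2 fold change of -0.90 (SE 0.24, limma unadjusted p = 0.00576, adjusted p = 0.305). By number the ratios were 0.343, 0.646 and 0.608. The unadjusted p was above 0.01 without CD73 siRNA replicate 1, CD73 siRNA replicate 2, control replicate 1 or control replicate 3, and the log2 fold change was then -0.69, -0.89, -0.85 and -0.78.

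GCLC and GCLM form the rate-limiting ligase of glutathione synthesis. GCLC, its catalytic subunit, was at 5.62, 4.68 and 4.90 RPKM with CD73 siRNA and at 6.17, 4.60 and 6.82 RPKM in the controls (log2 fold change -0.17, interval -0.51 to 0.17). GCLM, the modifier subunit whose promoter match is printed above, was at 11.5, 11.5 and 14.4 RPKM against 12.1, 12.6 and 17.0 RPKM (-0.14, interval -0.49 to 0.21). GCLM was lower within every number and GCLC in numbers 1 and 3. GSS, the synthetase of the second step, averaged 61.5 ± 1.7 and 62.9 ± 3.9 RPKM. SLC7A11, the cystine antiporter subunit that feeds the pathway, went the other way, with 2.57, 1.92 and 4.85 RPKM against 2.004, 1.26 and 3.31 RPKM (0.36, interval -0.34 to 1.06). It was higher in all 3 numbers, by 1.28, 1.53 and 1.47 times, while the groups overlapped. With the block its unadjusted p was 0.0107, just outside the limit.

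All 4 tested genes of the thioredoxin system had lower means with CD73 siRNA, and in 3 of them the groups did not overlap. Over all tested genes 48% had a lower mean, and 8.07% were lower without overlap. TXNRD1 (ENSG00000198431, chr12:104215779-104350305, plus strand), the cytosolic thioredoxin reductase, was at 52.7, 58.5 and 60.7 RPKM with CD73 siRNA and at 72.8, 63.6 and 88.1 RPKM in the controls. The log2 fold change was -0.37 (SE 0.13, limma unadjusted p = 0.0238), and with the block the limma unadjusted p was 0.00797 and the adjusted p = 0.124. TXN, its cytosolic substrate, was nearly level among the CD73 siRNA samples at 108, 106 and 109 RPKM, below 130, 111 and 134 RPKM in the controls (-0.21, SE 0.10, limma unadjusted p = 0.0746). Control replicate 2 was the lowest control for both. TXN2, the mitochondrial thioredoxin, was at 21.8, 26.4 and 27.1 RPKM against 37.2, 30.4 and 31.9 RPKM (-0.39, SE 0.12, limma unadjusted p = 0.0142). TXNRD2, the mitochondrial reductase, averaged 4.70 ± 0.62 and 5.39 ± 0.61 RPKM. SRXN1, which repairs overoxidised peroxiredoxins, had 0 or 1 read in each library. Nearly all of it overlaps a readthrough gene on the same strand, AL121758.1, that had 3 to 8 reads. How reads shared by both genes were counted is not given, so the level of SRXN1 cannot be read from these values. TXNRD1 shares its locus with EID3, and reads in the overlap cannot be assigned where strand is not stated.

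Among the peroxiredoxins, PRDX4 alone passed the test. PRDX4 (ENSG00000123131, chrX:23664262-23686399, plus strand) is the family member of the endoplasmic reticulum, where it uses peroxide to drive disulfide formation. It was at 53.9, 55.0 and 52.3 RPKM with CD73 siRNA and at 22.7, 41.6 and 33.7 RPKM in the controls. The CD73 siRNA samples were almost level, and the spread was in the controls. The mean was 53.7 ± 1.4 against 32.7 ± 9.5 RPKM (SD, n = 3), or 165% of the control (log2 fold change 0.74, SE 0.20, limma unadjusted p = 0.00519, adjusted p = 0.303). By number the ratios were 2.38, 1.32 and 1.55. Leaving out any of the CD73 siRNA replicates or control replicate 3 raised the unadjusted p above 0.01, with log2 fold changes between 0.73 and 0.79, and without control replicate 1 the value was 0.51.

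The other peroxiredoxins reduce peroxide in the cytosol and mitochondria. PRDX1 was at 228, 173 and 248 RPKM with CD73 siRNA and at 208, 168 and 263 RPKM in the controls (0.03, interval -0.41 to 0.47). PRDX5 was at 182, 152 and 174 RPKM against 204, 144 and 148 RPKM (0.05, interval -0.29 to 0.39). After FTL these were the most abundant members, and their groups overlapped widely. PRDX6 averaged 65.4 ± 6.1 and 66.8 ± 3.0 RPKM. PRDX2 and PRDX3 were lower within every number, with log2 fold changes of -0.25 and -0.20. PRDX2 rested on 102 to 189 reads and overlaps HOOK2.

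Of the glutathione peroxidases, superoxide dismutase and catalase, CAT alone passed the limit, and only with the block. GPX4, the selenoenzyme that reduces lipid hydroperoxides and restrains ferroptosis, was at 119, 113 and 114 RPKM with CD73 siRNA and at 147, 114 and 119 RPKM in the controls (-0.12, interval -0.39 to 0.14). Its groups were close in numbers 2 and 3 and differed mainly in number 1. GPX1 averaged 64.7 ± 8.8 and 67.9 ± 18.8 RPKM, and GPX8 9.19 ± 1.48 and 9.60 ± 1.59 RPKM. SOD1, which dismutes cytosolic superoxide, averaged 89.4 ± 9.5 and 86.0 ± 6.2 RPKM. CAT (ENSG00000121691, chr11:34438925-34472062, plus strand), which breaks down hydrogen peroxide in peroxisomes, was at 22.2, 22.9 and 30.8 RPKM with CD73 siRNA and at 16.2, 17.2 and 27.7 RPKM in the controls. The groups overlapped, since number 3 was high in both, and each CD73 siRNA sample was above its control by 1.37, 1.34 and 1.11 times. The log2 fold change was 0.32 (SE 0.21, limma unadjusted p = 0.166), and with the block the SE was 0.09 (limma unadjusted p = 0.0095, adjusted p = 0.13).

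The glutathione transferases attach glutathione to electrophiles. GSTP1, the most abundant of them, averaged 125 ± 14 and 126 ± 10 RPKM (-0.01, interval -0.27 to 0.25). GSTO1 averaged 38.0 ± 4.3 and 46.0 ± 9.8 RPKM (-0.25, interval -0.64 to 0.14). GSTM3 was at 8.16, 8.56 and 9.27 RPKM with CD73 siRNA and at 7.46, 7.71 and 7.69 RPKM in the controls. Its groups did not overlap, with a small log2 fold change of 0.16 (SE 0.10, limma unadjusted p = 0.133). MGST1, a microsomal transferase, lay between 0.14 and 0.40 RPKM in all samples.

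Enzymes that supply NADPH, the electron source of both GSR and TXNRD1, differed from each other. ME1 (ENSG00000065833, chr6:83210389-83431071, minus strand), the cytosolic malic enzyme whose promoter match is printed above, was at 10.4, 9.20 and 13.5 RPKM with CD73 siRNA and at 4.46, 6.44 and 7.71 RPKM in the controls. Every CD73 siRNA sample was above every control. The mean was 11.0 ± 2.2 against 6.20 ± 1.64 RPKM (SD, n = 3), or 177% of the control (log2 fold change 0.75, SE 0.20, limma unadjusted p = 0.00534, adjusted p = 0.303). By number the ratios were 2.32, 1.43 and 1.75. Without CD73 siRNA replicate 1, CD73 siRNA replicate 3 or control replicate 1 the unadjusted p was above 0.01, with log2 fold changes of 0.78, 0.61 and 0.56. The 3 tested enzymes of the pentose phosphate pathway, the other cytosolic NADPH source, had lower means and did not pass the test. PGD had a log2 fold change of -0.18, TALDO1 of -0.09 and TKT of -0.10. AKR1B1, an aldo-keto reductase that consumes NADPH, had -0.16, and AKR1C1 had 0 or 1 read in each library.

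**Figure D3:**
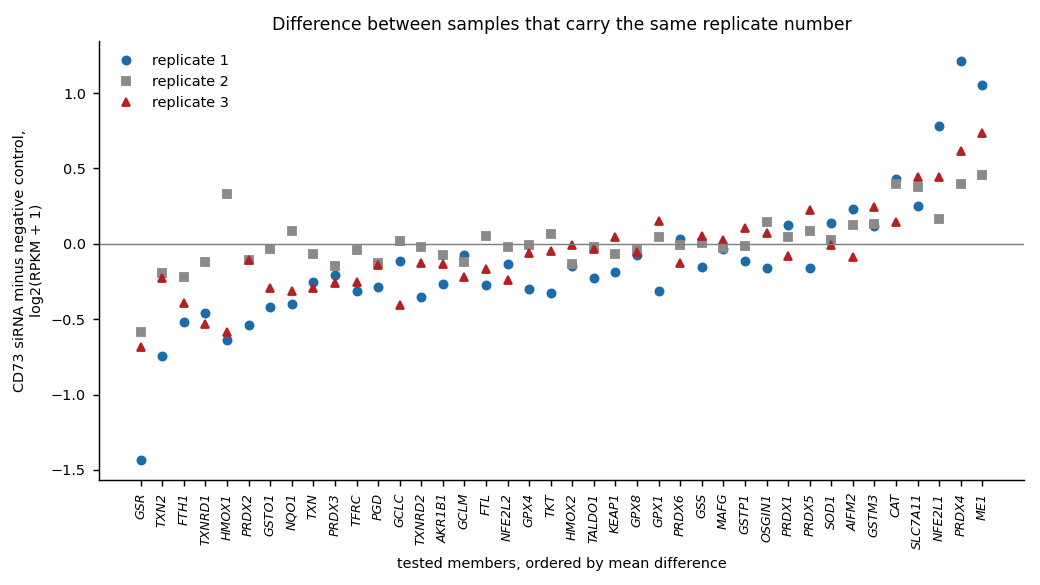
Difference between the CD73 siRNA and negative control sample of the same replicate number (vertical axis, log2(RPKM + 1)) for the 40 tested members, ordered by mean difference. GSR at the left end was lower and PRDX4 and ME1 at the right end were higher in all 3 numbers, and for these 3 genes the difference was largest in number 1.

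The iron genes varied more between replicate numbers than between the siRNA groups. FTH1 and FTL are the heavy and light chains of ferritin, which stores iron, and TFRC is the transferrin receptor that brings it in. Iron regulatory proteins bind stem-loops named iron-responsive elements in the 5′ UTR of the ferritin transcripts, where they block translation, and in the 3′ UTR of TFRC, where they protect the transcript from decay. The element was searched as a C, 5 stem bases, the loop CAGTGN and 5 bases that pair with the stem, in 1 coding transcript per gene of GENCODE 29 (GRCh38). FTH1 and FTL held 1 match each and TFRC held 4. The ferritin matches and the first of TFRC are printed, 5′ to 3′ along the gene with the loop in capitals, because these genes share a mode of control that acts at different ends of the transcript.
FTH1, 5′ UTR, chr11:61967571-61967600, minus strand: cctgcttcaaCAGTGCttggacggaacccg
FTL, 5′ UTR, chr19:48965337-48965366, plus strand: cttgcttcaaCAGTGTttggacggaacaga
TFRC, 3′ UTR, chr3:196050976-196051005, minus strand: ttatcggaagCAGTGCcttccataattatg

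FTH1 was at 28.5, 17.2 and 7.46 RPKM in CD73 siRNA replicates 1, 2 and 3 and at 41.2, 20.1 and 10.1 RPKM in the controls. In both groups number 1 was highest and number 3 lowest, and the mean RPKM of number 1 was 3.97 times that of number 3. On the log2(RPKM + 1) scale this spread was the 21st widest of the 12527 tested genes. Within numbers, each CD73 siRNA sample was below its control, at 0.691, 0.851 and 0.738 of it. Its log2 fold change was therefore -0.38 with SE 0.55 (limma unadjusted p = 0.51), and with the block the SE was 0.09 (limma unadjusted p = 0.00451, adjusted p = 0.116). FTH1 rested on 255 to 1342 reads, and 25 annotated pseudogenes carry its name, of which the 13 with values had 17 to 40 reads in all. How reads matching several copies were counted is not given in the sources used here, so its level is uncertain. The same limit applies to FTL, which has 16 annotated pseudogenes, of which the 3 with values had 2 to 6 reads. TXN and AKR1B1 have 7 annotated pseudogenes each, and PRDX2 and PRDX3 have 4 each.

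FTL, the most abundant member, was at 658, 487 and 646 RPKM with CD73 siRNA and at 796, 470 and 725 RPKM in the controls (-0.13, interval -0.61 to 0.35). TFRC was at 54.3, 41.0 and 110 RPKM against 67.6, 42.1 and 131 RPKM (-0.20, interval -1.24 to 0.84). For TFRC number 3 was highest and number 2 lowest in both groups, with mean RPKM 2.90 times apart, the 43rd widest spread of all tested genes on the log2(RPKM + 1) scale. The replicate number with the least FTH1 thus had the most TFRC in both groups. FTL did not follow FTH1 in this: like TFRC, it was lowest in number 2 in both groups. A link between these levels was not tested. TFRC was lower with CD73 siRNA within every number and FTL in numbers 1 and 3, but neither passed 0.01 with the block (TFRC unadjusted p = 0.046). SLC7A11 and NQO1 were also highest in number 3 and lowest in number 2, with mean RPKM 2.57 and 1.76 times apart. Over all members the median spread between numbers was 0.36 on the log2(RPKM + 1) scale, beside 0.26 over all tested genes. This scale narrows the spread of low genes, and neither this comparison nor the ranks of FTH1 and TFRC were matched for level.

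**Figure D4:**
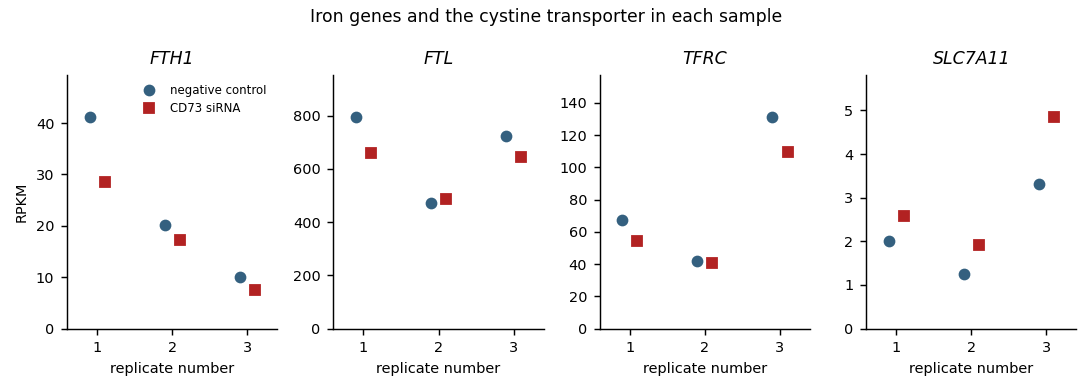
RPKM (vertical axes, linear and starting at 0) of FTH1, FTL, TFRC and SLC7A11 in each negative control (blue circles) and CD73 siRNA (red squares) sample, by replicate number. FTH1 was highest in number 1 and TFRC and SLC7A11 in number 3, in both groups.

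Further genes of the same defence were taken from a list of 76, of which 73 had values and 60 were tested. At an unadjusted p below 0.05, 7 of them (11.7%) passed, beside 12.1% of all tested genes. Below 0.01, 3 (5%) passed, beside 3.13% of all genes. These 3 were lower with CD73 siRNA and 0 were higher (lower in 1.31% of all genes, higher in 1.82%). With the block 5 (8.33%) passed, all lower, beside 7.57% of all genes passing and 3.3% lower, as SQSTM1, an autophagy receptor that also binds KEAP1, and UGDH, an enzyme of glucuronic acid supply, joined them. CISD2, an iron-sulfur protein of the endoplasmic reticulum and outer mitochondrial membrane, was at 6.11, 7.92 and 7.97 RPKM with CD73 siRNA and at 11.4, 12.4 and 10.3 RPKM in the controls (log2 fold change -0.57, SE 0.13, limma unadjusted p = 0.0022, adjusted p = 0.303). STEAP3, the endosomal reductase that prepares iron delivered through TFRC for export to the cytosol, was at 10.3, 15.5 and 10.9 RPKM against 18.3, 17.2 and 18.7 RPKM (-0.55, SE 0.15, unadjusted p = 0.00689). ABCC4, an efflux pump also known as MRP4, was at 6.72, 7.22 and 8.52 RPKM against 10.7, 9.25 and 11.4 RPKM (-0.43, SE 0.12, unadjusted p = 0.00831). None of the 3 overlapped between groups. Of the 60 further genes, 4 were lower without overlap (6.67%, beside 8.07% of all tested genes). Another 5 were higher without overlap (8.33%, beside 10.3%). Lower means were found for 37 of the 60 (61.7%), beside 48% of all genes, with a median log2 fold change of -0.06 beside 0.01.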

How the data were processed

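Transcript levels were measured in 3 PANC-1 samples with CD73 siRNA and 3 with a negative control, grouped by the treatment in their labels. The authors deposited 1 table per sample with a value for each gene, read here as RPKM: multiplied by the merged exon length in GENCODE 29, more than 95% of the genes under 1000 reads were whole multiples of 1 step per sample (tolerance 0.02 reads). The submitters' processing notes name bcl2fastq, Bowtie2 2.2.3, HTSeq 0.6.0 and hg38, without settings, and strand is not stated.

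Values were compared on log2(RPKM + 1), which understates changes of low genes, keeping genes that reached 1 RPKM in 3 or more samples. The tool was limma 3.58.1 (lmFit, eBayes with a trend) in R 4.3.3 with Benjamini-Hochberg adjustment over all tested genes. The limit was an unadjusted p of 0.01. For a single gene, an exact permutation test of 3 against 3 cannot go below 0.1.

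Replicate numbers come from the sample titles. Deviations from the group means correlated at 0.20, 0.48 and 0.55 between samples with numbers 1, 2 and 3. The numbers were therefore taken to pair the samples, and a fit with the number as a block was added. For single members its p-values are given where it changed a call, and also for SLC7A11 and TFRC, where it did not.

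Values in every sample are given for members with an unadjusted p below 0.01 in either fit, those whose groups did not overlap, the 3 most abundant, and 12 fixed genes. Members, lists and tests were chosen with earlier results of these data known. Alternatives tried were median-of-ratios scaling, the block, each sample left out in turn, a pseudocount of 0.1, and all genes above 0 without a filter.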

Additional observations from a re-analysis of the deposited data

How the results depend on the processing

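The limits are few samples and calls near the threshold. The count of all tested genes with an unadjusted p below 0.01 was 392. It was 948 with the replicate block and ranged from 110 to 791 when each sample was left out in turn, lowest without CD73 siRNA replicate 1 and highest without control replicate 2, with 181 without control replicate 1 and 254 without control replicate 3. The count of members was 3, with 7 under the replicate block, 0 with no filter and 0 to 5 with a sample left out (0 without CD73 siRNA replicate 1, 5 without control replicate 2, 1 without any of the others). That of the further genes was 3, with 5 under the replicate block and 1 to 4 with a sample left out (1 without CD73 siRNA replicate 1, control replicate 1 or control replicate 3). The block changed no other call than those given in the text. Without the filter GSR, PRDX4 and ME1 had unadjusted p-values from 0.0116 to 0.0137. The cause of these shifts was not tested. The log2 fold change of NT5E and the median of the members kept their direction under every alternative run, the latter between -0.16 and -0.05. With median-of-ratios scaling all 40 members, and with the pseudocount of 0.1 likewise all 40, kept their direction and their side of the threshold. Leaving out single samples, in fits without the block, turned the direction of members that had not passed the test without it. Of these, FTH1 alone had passed with the block. Their log2 fold changes then ranged as follows: KEAP1 (-0.18 to 0.013), MAFG (-0.10 to 0.056), OSGIN1 (-0.15 to 0.21), GCLM (-0.24 to 0.0023), GSS (-0.076 to 0.012), PRDX1 (-0.13 to 0.19), PRDX5 (-0.042 to 0.21), PRDX6 (-0.10 to 0.029), GPX1 (-0.25 to 0.15), GPX8 (-0.17 to 0.050), SOD1 (-0.024 to 0.13), GSTP1 (-0.091 to 0.063), FTH1 (-0.85 to 0.11), FTL (-0.36 to 0.018), TFRC (-0.60 to 0.23) and TKT (-0.30 to 0.036). OSGIN1, AIFM2 and PRDX2 rested on at most 189 reads in a sample, and the part of depth in their spread was not tested.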
